A study of Mus musculus with 21 samples.

Results

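N-acetylcysteine (NAC) was compared with vehicle in mouse CD8+ T cells kept under repeated stimulation, and the genes described are those with at least 1 RPKM (a read count scaled by transcript length and by the reads of the library) in at least 3 of the 6 libraries concerned. That rule took 10977 of the 13202 genes in the deposited table. Of these members, 10161 reached 1 RPKM in all 6 libraries, 335 reached it in every NAC library and no vehicle library, and 192 reached it in every vehicle library and no NAC library, so the last 2 sets entered through the group in which they were high. Genes named below that entered through NAC cells alone include Tox, Slamf6, Gsta4, Foxp3, Slc30a2, Slc43a1 and Eno2. Those that entered through vehicle cells alone include Gpx8 and Il3. For all such genes the call is not independent of the rule. At the edge of the rule, Evi5 just entered with 1.25, 0.960 and 1.27 RPKM in NAC cells and 0.879, 0.887 and 1.00 RPKM in vehicle cells, and Cd36 just missed it with 0.659, 0.459 and 0.694 RPKM in NAC cells and 1.02, 1.02 and 0.997 RPKM in vehicle cells.

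The cells were CD8+ T cells of C57BL/6 mice, enriched from spleen and inguinal lymph nodes with a kit that leaves them untouched by antibody, and read by RNA-seq of poly(A) RNA. The groups compared here shared a first stimulation of 48 h with plate-bound antibodies to CD3 and CD28, and RPMI medium with serum, glutamine, beta-mercaptoethanol (itself a thiol) and interleukin-2. NAC chronic cells (n = 3) then met plate-bound anti-CD3 anew every 48 h until day 8, with 10 mM NAC from 48 h on. Vehicle chronic cells (n = 3) had the same stimulation with vehicle in place of NAC. Vehicle acute cells (n = 3) had vehicle and no further anti-CD3 after the first 48 h, and serve here as a background level. Acutely stimulated cells with NAC are not analysed here, so an effect of NAC without repeated stimulation was not tested. The series holds 21 libraries in all, with acute and chronic cells from a polyclonal and an OT-I experiment besides. Nothing in the labels says that the 3 libraries of a group came from separate mice or cultures. The spread behind each p-value may therefore be technical, and it is pooled within groups over all 21 libraries. Pairs of libraries correlated (Pearson r of log2(RPKM + 1)) at 0.9983 to 0.9984 within the NAC chronic and vehicle chronic groups. The range was 0.985 to 0.9975 within the polyclonal groups and 0.9888 to 0.9981 within the OT-I groups.

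NAC is a cell-permeable thiol that scavenges some oxidants and supplies cysteine for glutathione, the main small thiol of the cell. T cells that meet antigen without pause are known to lose cytokine output and proliferation, to raise inhibitory receptors such as PD-1 (Pdcd1) and TIM-3 (Havcr2), and to lose the progenitor-like state kept by the transcription factor TCF1, the product of Tcf7. Metallothioneins are small cysteine-rich proteins that bind zinc and copper and are induced by the metal-sensing factor MTF1, and ATF4 is the factor that raises amino acid transporters, amino acid synthesis and tRNA charging when amino acids are short or the endoplasmic reticulum is stressed.

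Promoters of 4 genes are shown because they belong to groups that moved together, namely 2 metallothioneins and an ATF4 target that fell with NAC, and an interferon-inducible GTPase that rose. Each is the 250 bases before the annotated start in RefSeq (build GRCm38.p6, whereas the deposited values rest on mm9), read 5′ to 3′ on the gene's strand. Capitals mark the core of the metal response element (TGCNCNC) in Mt2, at chr8:94172368-94172617, and in Mt1, at chr8:94178839-94179088, the C/EBP-ATF element (TGATGNAA) in Chac1, at chr2:119350992-119351241, and the interferon-stimulated response element in Igtp, at chr11:58199306-58199555, all 4 windows on the plus strand and each motif searched on both strands.
Mt2: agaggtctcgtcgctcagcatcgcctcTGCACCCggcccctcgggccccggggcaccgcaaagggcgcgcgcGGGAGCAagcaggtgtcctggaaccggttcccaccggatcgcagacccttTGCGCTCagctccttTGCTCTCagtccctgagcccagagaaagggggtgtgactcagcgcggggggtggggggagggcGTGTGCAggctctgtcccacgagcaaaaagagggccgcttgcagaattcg
Mt1: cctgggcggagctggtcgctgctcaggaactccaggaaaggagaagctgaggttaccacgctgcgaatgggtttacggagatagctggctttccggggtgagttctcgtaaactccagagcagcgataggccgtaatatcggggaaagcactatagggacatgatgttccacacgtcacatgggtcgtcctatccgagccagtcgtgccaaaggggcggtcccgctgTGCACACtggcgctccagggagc
Chac1: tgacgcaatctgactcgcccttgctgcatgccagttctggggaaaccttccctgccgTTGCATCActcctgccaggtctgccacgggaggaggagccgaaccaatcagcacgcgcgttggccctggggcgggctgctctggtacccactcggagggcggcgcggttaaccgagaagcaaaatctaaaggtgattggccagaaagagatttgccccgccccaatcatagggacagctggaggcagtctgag
Igtp: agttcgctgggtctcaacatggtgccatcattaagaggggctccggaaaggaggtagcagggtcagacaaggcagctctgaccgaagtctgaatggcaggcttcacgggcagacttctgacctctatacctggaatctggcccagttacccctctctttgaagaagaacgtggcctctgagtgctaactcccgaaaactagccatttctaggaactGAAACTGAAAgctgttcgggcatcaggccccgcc
In these windows Mt2 held 5 matches and the others 1 each, and bases past the annotated start were not searched. The metal response core is short and occurred in 44.4% of all 32851 promoter windows of that length, while 3 or more matches occurred in 4.65%. It occurred in 56.5% of members that have a window and in 14 of the 19 such members of the metallothionein and zinc group. The C/EBP-ATF element occurred in 3.45% of all windows, in 2.41% of members and in 7 of the 26 ATF4-group members that have a window. The interferon element, added to the motifs after expression values were seen, occurred in 2.98% of all windows, in 3.25% of members, in 10 of 22 members of the interferon-gamma and MHC class I group, to which Igtp belongs, and in 9 of 22 type I interferon-stimulated members. For the other motifs searched, the antioxidant response element occurred in 10 of 28 NRF2 members against 14.1% of all members, the AP-1 site (TGANTCA) in 5 of 26 cytokine members against 5.24%, the E-box (CACGTG) in 5 of 23 glycolysis members against 10.1%, and the cyclic AMP response element in 0 of 22 endoplasmic reticulum members against 3.28%. Shares of windows count each window, whereas shares of members count a gene once if any of its windows matched. Counted by gene over all 27025 genes with a window, the metal core occurred in 47.2%, the C/EBP-ATF element in 3.91% and the interferon element in 3.46%. A match describes letters in a window and not a bound site.

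The 6 libraries separated fully by treatment. NAC libraries held 14421378 to 15404084 reads in genes and vehicle chronic libraries 15950688 to 17539278, recovered from the deposited RPKM values. The first principal component of log2(RPKM + 1) in these libraries, over all 12630 genes tested and not the members alone, carried 95.7% of the variance. That component split NAC from vehicle, with 1.1% of the variance on the second. The markers that define the labelled cell type were present. Cd8a had 141, 137 and 137 RPKM in NAC cells against 144, 146 and 145 RPKM in vehicle cells, and all 7 measured T cell markers were members. Cd8b1, the beta chain of the CD8 dimer, differed, at 187, 182 and 184 RPKM in NAC cells against 88.6, 88.8 and 89.1 RPKM in vehicle cells.

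Other cell types' markers also moved. All 5 CD4 T cell markers were called higher with NAC, although Zbtb7b lost its call after rescaling (limma adjusted p = 0.087), their summed level being 105.6 to 110.1 RPKM in NAC cells, 36.4 to 38.9 in vehicle chronic cells and 59.1 to 64.6 in vehicle acute cells. The largest part of that sum in NAC cells was Cd4 itself, the co-receptor of helper T cells, at 46.7, 48.2 and 48.9 RPKM in NAC cells against 2.39, 2.16 and 2.63 RPKM in vehicle cells (log2 difference 3.85 ± 0.10 SE, limma adjusted p = 2.8e-17). Foxp3, the factor of regulatory T cells, was at 2.91 to 3.26 RPKM in NAC cells and 0.574 to 0.718 RPKM in vehicle cells. The part of these CD4-marked transcripts in the results below was not tested, and in bulk RNA more cells of a type and more RNA per cell cannot be told apart. Of 9 B cell markers 3 were members and 2 of these rose, with sums of 11.5 to 12.4 RPKM in NAC cells against 4.60 to 5.57 in vehicle cells, while Ms4a1 and Pax5 were at 0.115 RPKM or less in all 6 libraries. Of 8 measured myeloid markers 3 rose and 2 fell, of which Cd14, near 1 RPKM in vehicle cells, lost its call in 7 of 12 alternatives, with sums of 59.4 to 65.2 RPKM in NAC cells against 58.4 to 62.8 in vehicle cells, and Mpeg1, Adgre1 and Spi1 were at 0.0613 RPKM or less. Of 5 natural killer markers 1 rose and 3 fell, with sums of 1008 to 1021 RPKM in NAC cells against 1407 to 1461 in vehicle cells, and Ncr1 was at 0.454 RPKM or less. Stromal and erythroid markers had no member, and of 6 melanocyte markers Pmel alone was one.

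NAC shifted most of the transcriptome by small amounts and a smaller set by large ones. By limma on log2(RPKM + 1), with p-values adjusted (Benjamini-Hochberg) over the 12630 genes tested and called under 0.05, 4763 of the 10977 members were higher with NAC (43.4%) and 2777 lower (25.3%), against 38.5% and 22.6% of all genes tested. At least 2-fold, 738 members were higher (6.72%) and 430 lower (3.92%), against 5.87% and 3.42% of all genes tested. The 3 NAC values lay wholly above the 3 vehicle values for 5567 members (50.7%) and wholly below for 3318 (30.2%), against 47.1% and 28.7% of all genes tested. The split depends on scaling. Granzyme genes took 0.529% to 0.540% of reads in NAC libraries against 4.32% to 4.43% in vehicle libraries, the 10 most abundant genes took 4.29% to 4.33% against 7.62% to 7.76%, and the median RPKM over genes tested was higher in NAC libraries by 0.175 on the log2 scale. With libraries rescaled to a common median, 3299 members were higher (30.1%) and 4007 lower (36.5%), against 26.8% and 32.6% of all genes tested, and the median log2 difference over members was -0.04 instead of 0.12. Small differences are therefore given below with their counts after rescaling where these differ in direction or by more than a few genes. The shares of all members given here are the background for each group count of NAC against vehicle chronic cells below.

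**Figure D1:**
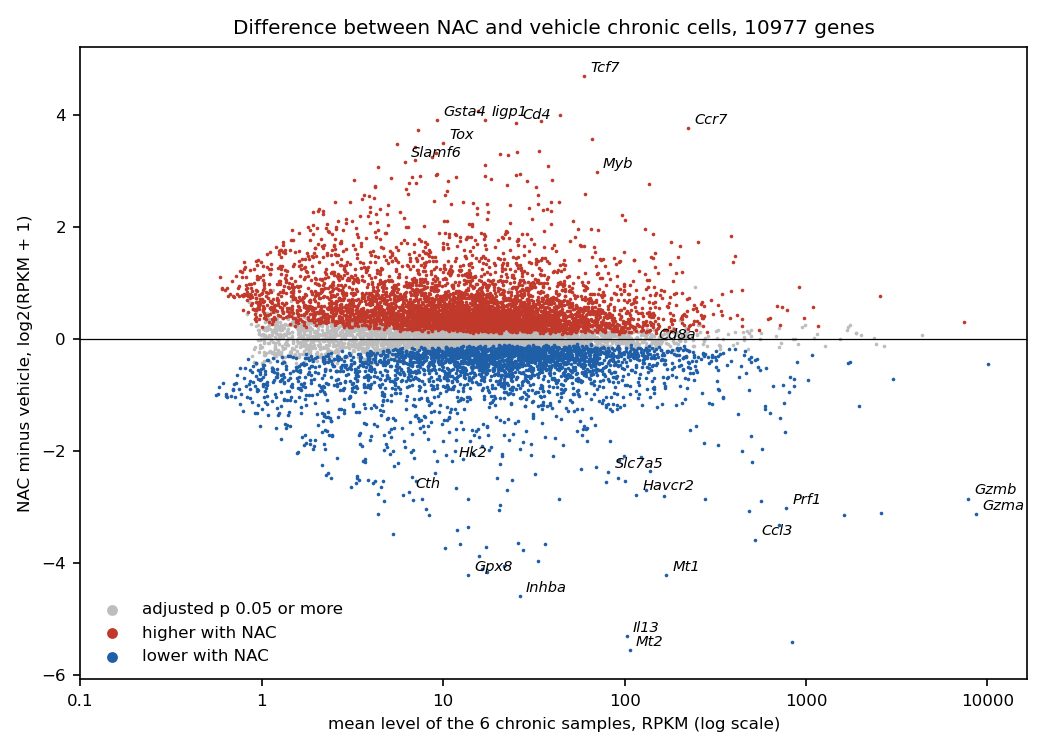
Difference between NAC and vehicle chronic cells in log2(RPKM + 1) against the mean level over the 6 libraries (log axis), with 1 point per member, coloured by whether limma called it higher, lower or neither. Most called genes lie within 1 log2 unit of 0, while Tcf7, Ccr7, Cd4 and Tox stand at the top and Mt2, Il13, Inhba and Mt1 at the bottom.

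Genes of naive, memory and progenitor-like T cells were higher with NAC. Of 25 members of that group 21 rose and 3 fell, with a median log2 difference of 1.25 (20 and 3 after rescaling), beside 0.12 over all members. Tcf7 had 117, 117 and 113 RPKM in NAC cells against 3.23, 3.37 and 3.90 RPKM in vehicle cells (log2 difference 4.70 ± 0.07 SE, adjusted p = 1.4e-20). The groups were far apart, and the NAC level lay below the 176 ± 17.1 RPKM (SD, n = 3) of vehicle acute cells (adjusted p = 1.5e-07). Ccr7, the chemokine receptor that guides T cells into lymph nodes, had 413, 417 and 419 RPKM in NAC cells against 30.7, 29.7 and 28.3 RPKM in vehicle cells (3.77 ± 0.08), above the 56.8 ± 1.59 RPKM of acute cells. Slamf6, a surface marker used for progenitor-like exhausted cells, averaged 11.9 ± 0.272 RPKM in NAC cells and 0.433 ± 0.0752 RPKM in vehicle cells (SD, n = 3 each). Myb, a factor needed for stem-like CD8+ cells, averaged 125 ± 5.24 RPKM in NAC cells and 14.96 ± 0.570 RPKM in vehicle cells. Il7r, the receptor of the survival cytokine IL-7, went the other way, at 124, 124 and 129 RPKM in NAC cells against 151, 154 and 151 RPKM in vehicle cells, a fall by 0.28 on the log2 scale (adjusted p = 0.00064).

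Transcription factors tied to chronic stimulation and effector fate did not move as a block. Of 29 members 13 rose and 13 fell, with a median of -0.05 (11 and 15 after rescaling). Tox, which is required for the exhausted lineage, had 18.7, 19.3 and 19.2 RPKM in NAC cells against 0.791, 0.560 and 0.999 RPKM in vehicle cells (3.50 ± 0.14 SE, adjusted p = 2.8e-14). Vehicle acute cells had 1.06 ± 0.191 RPKM, so Tox was high in NAC cells alone among these 3 groups. Id2, a partner of E proteins that favours effector cells, averaged 178 ± 4.82 RPKM in NAC cells and 714 ± 19.4 RPKM in vehicle cells (SD, n = 3 each). Runx2 averaged 6.64 ± 0.196 RPKM in NAC cells and 24.8 ± 0.759 RPKM in vehicle cells, and Batf3, a partner of Jun factors, 1.90 ± 0.332 RPKM in NAC cells and 8.11 ± 0.854 RPKM in vehicle cells.

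Inhibitory receptors and their ligands were mostly lower with NAC, to very different degrees. All 21 listed genes were members and all were called, 6 higher and 15 lower, with a median of -0.33, and the counts were the same after rescaling. At least 2-fold, 5 were lower and 4 higher, and the largest rise was 1.61 on the log2 scale. The genes named below are all among the lower set. Havcr2 had 29.2, 28.5 and 28.3 RPKM in NAC cells against 199, 203 and 204 RPKM in vehicle cells (-2.78 ± 0.05 SE, adjusted p = 1.1e-19), near the 25.2 ± 1.14 RPKM of acute cells. Pdcd1 fell much less, with 127, 127 and 136 RPKM in NAC cells against 207, 214 and 213 RPKM in vehicle cells (-0.70 ± 0.08, adjusted p = 1.1e-07), and Lag3 least of those named, with 286, 288 and 268 RPKM in NAC cells against 350, 358 and 352 RPKM in vehicle cells (-0.33 ± 0.06, adjusted p = 0.00016). Neither came near its acute level, which was 8.18 ± 0.627 RPKM for Pdcd1 and 8.94 ± 0.349 RPKM for Lag3 (SD, n = 3). Cd244, a SLAM family receptor, averaged 11.1 ± 0.355 RPKM in NAC cells and 49.7 ± 1.44 RPKM in vehicle cells. Klrg1, a lectin-like receptor of terminal effector cells, averaged 6.93 ± 0.762 RPKM in NAC cells and 23.5 ± 0.867 RPKM in vehicle cells. Lilrb4a averaged 44.5 ± 0.875 RPKM in NAC cells and 232 ± 2.40 RPKM in vehicle cells.

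**Figure D2:**
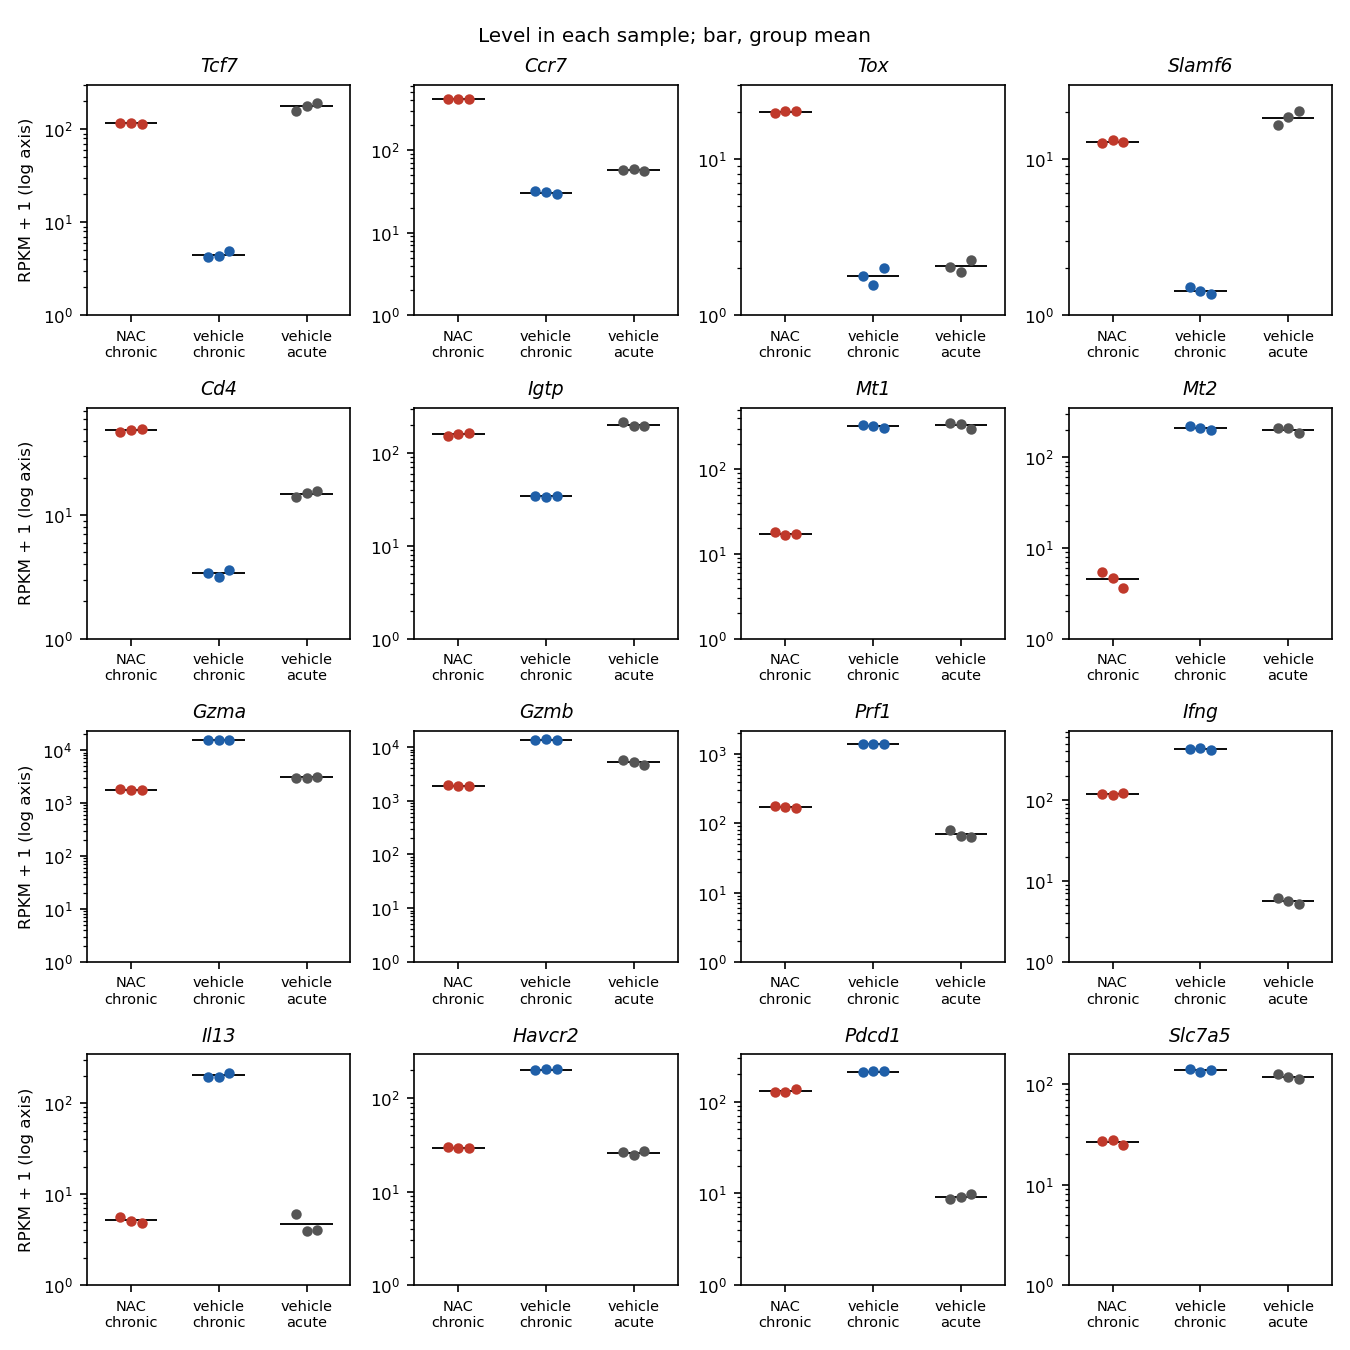
Level of 16 genes in each library as RPKM + 1 on log axes, for NAC chronic, vehicle chronic and vehicle acute cells, with 1 point per library and a bar at the group mean. The libraries of a group lie close together, and NAC and vehicle chronic cells do not overlap for any of the 16 genes.

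The cytotoxic machinery was lower with NAC. All 26 genes of the group were called, 21 lower and 5 higher, with a median of -1.04 (21 and 3 after rescaling). Gzmb, the protease that starts apoptosis in target cells, had 1935, 1887 and 1886 RPKM in NAC cells against 13708, 13901 and 13485 RPKM in vehicle cells (-2.85 ± 0.11 SE, adjusted p = 1.4e-14), and acute cells had 5239 ± 531 RPKM. Gzma had 1808, 1787 and 1772 RPKM in NAC cells against 15817, 15817 and 15280 RPKM in vehicle cells (-3.13 ± 0.09, adjusted p = 1.7e-16). In both genes the NAC level was below that of acute as well as of chronic vehicle cells. The granzymes clustered beside Gzmb on the same chromosome differed further: Gzmg averaged 37.7 ± 3.67 RPKM in NAC cells and 1628 ± 24.3 RPKM in vehicle cells, Gzmf 128 ± 9.51 RPKM in NAC cells and 1285 ± 28.7 RPKM in vehicle cells, and Gzmd 327 ± 14.96 RPKM in NAC cells and 2900 ± 48.4 RPKM in vehicle cells (SD, n = 3 each). These genes are near-identical copies, so reads may be shared out between them. Prf1, the pore-forming perforin, was added to the named genes after its values were seen and had 175, 172 and 166 RPKM in NAC cells against 1381, 1379 and 1413 RPKM in vehicle cells (-3.02 ± 0.08, adjusted p = 3.9e-17), with 69.0 ± 9.63 RPKM in acute cells.

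Cytokine and chemokine genes were mostly lower with NAC. Of 32 members 24 fell and 4 rose, with a median of -0.68 (28 and 4 after rescaling). Il13 had 4.57, 4.02 and 3.88 RPKM in NAC cells against 192, 196 and 217 RPKM in vehicle cells (-5.30 ± 0.22 SE, adjusted p = 5.9e-14). The NAC values lay at the level of acute cells, 3.66 ± 1.22 RPKM, and no difference from these was called (limma adjusted p = 0.53). Il3 averaged 0.918 ± 0.0689 RPKM in NAC cells and 31.9 ± 0.348 RPKM in vehicle cells, and was listed at 0 in the 3 acute libraries. Il5, the eosinophil growth factor, averaged 0.967 ± 0.292 RPKM in NAC cells and 23.8 ± 2.11 RPKM in vehicle cells, and Il10, an inhibitory cytokine, 1.59 ± 0.345 RPKM in NAC cells and 41.8 ± 0.324 RPKM in vehicle cells. Inhba, the activin A subunit, averaged 1.19 ± 0.338 RPKM in NAC cells and 51.5 ± 4.42 RPKM in vehicle cells. Ifng, the main macrophage-activating cytokine of CD8+ cells, fell less, with 119, 113 and 120 RPKM in NAC cells against 432, 439 and 421 RPKM in vehicle cells (-1.86 ± 0.08, adjusted p = 6.1e-14), and remained above the 4.67 ± 0.538 RPKM of acute cells. Ccl3, a chemokine for monocytes and T cells, averaged 79.7 ± 4.34 RPKM in NAC cells and 964 ± 22.96 RPKM in vehicle cells, with 1.91 ± 0.244 RPKM in acute cells, and Ccl9 averaged 2.90 ± 0.195 RPKM in NAC cells and 52.0 ± 2.06 RPKM in vehicle cells.

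Genes induced by the T cell receptor, among them feedback inhibitors of signalling, were lower on balance: of 36 members 22 fell and 7 rose, with a median of -0.39 (23 and 4 after rescaling). Rgs1 had 139, 141 and 137 RPKM in NAC cells against 522, 523 and 510 RPKM in vehicle cells, and 48.8 ± 1.66 RPKM in acute cells (SD, n = 3), so NAC cells lay between the other groups. Rgs2, like Rgs1 a brake on G protein signalling, averaged 18.8 ± 0.756 RPKM in NAC cells and 73.0 ± 2.86 RPKM in vehicle cells. Cish and Socs3, inhibitors of cytokine signalling, averaged 26.7 ± 2.13 and 3.15 ± 0.198 RPKM in NAC cells, against 89.5 ± 4.19 and 13.3 ± 0.819 RPKM in vehicle cells. Of 32 subunits of the receptor and proximal signalling proteins 17 were higher and 6 lower, with a median of 0.24, or 15 and 8 with a median of 0.06 after rescaling, not far from the 43.4% higher and 25.3% lower of all members. Cd5 and Cd6, scavenger-type receptors that tune T cell receptor signals, averaged 149 ± 3.17 and 220 ± 6.16 RPKM in NAC cells, against 50.5 ± 1.09 and 75.7 ± 2.62 RPKM in vehicle cells. Plcg1, the phospholipase downstream of the receptor, averaged 91.2 ± 1.56 RPKM in NAC cells and 28.1 ± 0.112 RPKM in vehicle cells.

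Receptors for migration and for cytokines changed in both directions. Among 25 homing receptors and integrins 14 rose and 7 fell, with a median of 0.42 (13 and 8 after rescaling). Cxcr4, the bone-marrow homing receptor, averaged 50.8 ± 1.26 RPKM in NAC cells and 10.8 ± 0.331 RPKM in vehicle cells, S1pr1, needed to leave lymph nodes, 15.7 ± 0.681 RPKM in NAC cells and 4.36 ± 0.518 RPKM in vehicle cells, and Ccr2, which guides cells to inflamed tissue, 18.4 ± 1.81 RPKM in NAC cells and 64.7 ± 1.497 RPKM in vehicle cells. Among 23 cytokine receptors 13 rose and 7 fell, with a median of 0.31, or 11 and 9 after rescaling. Beside both groups stand 43.4% higher and 25.3% lower of all members, or 30.1% and 36.5% after rescaling. Il18r1, the IL-18 receptor chain, had 61.7, 61.0 and 64.5 RPKM in NAC cells against 5.25, 4.78 and 5.49 RPKM in vehicle cells (3.36 ± 0.09 SE, adjusted p = 1.3e-16), with 73.3 ± 6.11 RPKM in acute cells. Il12rb1, shared by the IL-12 and IL-23 receptors, averaged 26.8 ± 1.79 RPKM in NAC cells and 97.2 ± 1.21 RPKM in vehicle cells.

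Interferon-inducible genes were higher with NAC, although Ifng itself was lower. Of 31 type I interferon-stimulated members 27 rose and 2 fell, with a median of 0.74, and of 31 members of the interferon-gamma and MHC class I group 27 rose and 1 fell, with a median of 0.73. After rescaling the counts were 24 and 3, and 25 and 3. Iigp1, a GTPase that attacks vacuoles of intracellular parasites, had 31.5, 32.8 and 34.1 RPKM in NAC cells against 1.02, 1.39 and 1.35 RPKM in vehicle cells (3.91 ± 0.07 SE, adjusted p = 5.0e-19). Igtp, a GTPase of the same family whose promoter is shown above, had 153, 159 and 166 RPKM in NAC cells against 33.7, 33.0 and 33.8 RPKM in vehicle cells (2.22 ± 0.05, adjusted p = 2.6e-18). Nlrc5, the activator of MHC class I genes, averaged 59.8 ± 2.86 RPKM in NAC cells and 11.3 ± 0.770 RPKM in vehicle cells. Psmb9, a subunit of the immunoproteasome, averaged 290 ± 1.68 RPKM in NAC cells and 105 ± 4.36 RPKM in vehicle cells. Levels in NAC cells were not told apart from those in acute cells for Iigp1 (31.7 ± 2.93 RPKM in acute cells, limma adjusted p = 0.57) or Nlrc5 (56.7 ± 2.65 RPKM in acute cells, adjusted p = 0.58), both n = 3. Igtp was lower in NAC cells than in acute cells, which had 202 ± 11.2 RPKM (-0.34 on the log2 scale, adjusted p = 2.0e-06). In NAC against acute cells 13 type I members were higher and 15 lower, and 7 interferon-gamma members were higher and 11 lower, beside 36.3% higher and 29.9% lower of all genes tested. In vehicle chronic against vehicle acute cells, which share the vehicle chronic libraries with the main comparison, 25 of the 31 type I members and 29 of the 31 interferon-gamma members were lower, beside 34.4% of all genes tested that were lower and 24.5% that were higher.

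**Figure D3:**
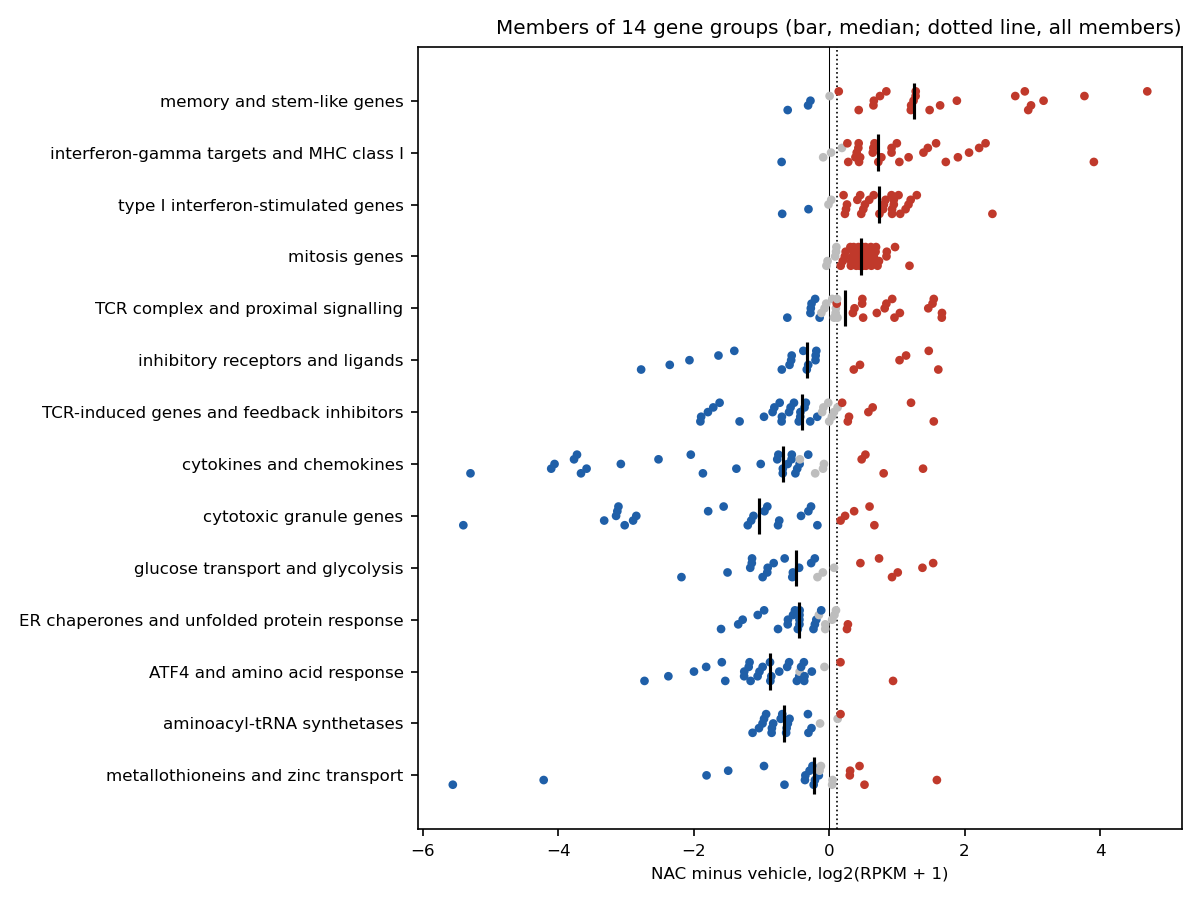
Log2 difference between NAC and vehicle chronic cells for every member of 14 gene groups, 1 point per gene, coloured red where called higher, blue where called lower and grey otherwise. Black bars mark group medians and the dotted line the median of all members (0.12). Memory and interferon groups lie mostly to the right, while cytotoxic, cytokine, ATF4 and tRNA synthetase groups lie mostly to the left.

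The main metallothioneins were far lower with NAC. Mt2 had 4.42, 3.62 and 2.57 RPKM in NAC cells against 220, 210 and 199 RPKM in vehicle cells (-5.56 ± 0.11 SE, adjusted p = 1.3e-18), the lowest log2 difference of any member. Mt1 had 17.1, 15.7 and 16.4 RPKM in NAC cells against 336, 328 and 304 RPKM in vehicle cells (-4.21 ± 0.10, adjusted p = 5.4e-18). In acute cells Mt2 stood at 201 ± 15.7 RPKM and Mt1 at 330 ± 30.4 RPKM (SD, n = 3), and by limma neither differed between vehicle chronic and acute cells past the threshold (log2 differences of 0.06 for Mt2 and -0.03 for Mt1). Mt3 averaged 4.64 ± 0.419 RPKM in NAC cells and 18.9 ± 2.86 RPKM in vehicle cells. The 3 genes are similar in sequence and short, so part of their reads may be shared. The whole group of metallothioneins and zinc transporters had 22 members, of which 13 fell and 5 rose, with a median of -0.22 (15 and 3 after rescaling). Slc30a2, a zinc exporter, rose, averaging 2.51 ± 0.284 RPKM in NAC cells and 0.164 ± 0.0874 RPKM in vehicle cells.

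Genes of thiol and peroxide metabolism changed in both directions. In the cysteine and glutathione group 6 of 23 members rose and 8 fell, with a median of -0.09 (3 and 12 after rescaling). The largest fall was in Cth, the cystathionine lyase that makes cysteine from methionine, with 0.885, 1.31 and 0.757 RPKM in NAC cells against 11.5, 11.9 and 12.8 RPKM in vehicle cells (-2.73 ± 0.21 SE, adjusted p = 7.4e-10). Acute cells had 0.263 ± 0.196 RPKM. Gclc and Gclm, the subunits of the enzyme that limits glutathione synthesis, had 13.0 ± 0.266 and 11.5 ± 1.09 RPKM in NAC cells, against 11.5 ± 0.155 and 9.75 ± 0.880 RPKM in vehicle cells. Their differences of 0.17 (adjusted p = 0.021) and 0.22 (adjusted p = 0.0053) were lost on rescaling, at 0.01 and 0.06. Sqrdl, which oxidises sulfide in mitochondria, averaged 4.39 ± 0.516 RPKM in NAC cells and 1.27 ± 0.0917 RPKM in vehicle cells.

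Among 28 thioredoxin, peroxiredoxin and superoxide members 7 rose and 12 fell, with a median of -0.05 (5 and 14 after rescaling). Gpx8, a peroxidase of the endoplasmic reticulum, had 0.588, 0.682 and 0.256 RPKM in NAC cells against 24.9, 26.7 and 28.7 RPKM in vehicle cells (-4.21 ± 0.10 SE, adjusted p = 5.6e-18), with 2.35 ± 0.224 RPKM in acute cells. Srxn1, sulfiredoxin, which repairs over-oxidised peroxiredoxins, had 5.12, 5.10 and 4.78 RPKM in NAC cells against 24.1, 24.2 and 23.7 RPKM in vehicle cells (-2.06 ± 0.05, adjusted p = 6.5e-17). Sepp1, the selenium carrier selenoprotein P, rose, averaging 62.9 ± 3.90 RPKM in NAC cells and 19.0 ± 0.629 RPKM in vehicle cells. Txnip, the inhibitor of thioredoxin and of glucose uptake, averaged 248 ± 3.58 RPKM in NAC cells and 120 ± 2.43 RPKM in vehicle cells (1.04 ± 0.04, adjusted p = 3.6e-14).

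Targets and regulators of NRF2, the factor activated by electrophiles and oxidants, were split, with 13 of 34 members higher and 17 lower and a median of -0.14 (9 and 17 after rescaling). The higher set was led by conjugating and detoxifying enzymes. Gsta4, a glutathione transferase for lipid aldehydes, had 18.0, 19.4 and 17.3 RPKM in NAC cells against 0.262, 0.179 and 0.434 RPKM in vehicle cells (3.90 ± 0.30 SE, adjusted p = 8.9e-10). Ephx1, microsomal epoxide hydrolase, averaged 47.3 ± 1.91 RPKM in NAC cells and 3.81 ± 0.431 RPKM in vehicle cells, and Mgst2, a microsomal glutathione transferase, 63.0 ± 3.08 RPKM in NAC cells and 12.1 ± 3.08 RPKM in vehicle cells. Hmox1, haem oxygenase, was among the lower set, averaging 3.24 ± 0.0642 RPKM in NAC cells and 12.5 ± 1.53 RPKM in vehicle cells. The classical target Nqo1 stayed under 1 RPKM in all 6 libraries, at 0.536 to 0.684 RPKM in NAC cells and 0.727 to 0.955 RPKM in vehicle cells, and is no member.

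ATF4 targets and amino acid genes fell together. Of 31 members of the ATF4 group 27 fell and 2 rose, with a median of -0.87 (28 and 1 after rescaling), beside 0.12 over all members. Chac1, which degrades glutathione and whose promoter is shown above, had 2.29, 2.25 and 1.90 RPKM in NAC cells against 9.55, 10.3 and 10.4 RPKM in vehicle cells (-1.82 ± 0.12 SE, adjusted p = 9.1e-11). Trib3, a feedback inhibitor of the pathway, had 5.96, 6.36 and 7.18 RPKM in NAC cells against 16.7, 17.6 and 16.3 RPKM in vehicle cells (-1.25 ± 0.08, adjusted p = 4.5e-11). Atf3 averaged 4.07 ± 0.119 RPKM in NAC cells and 19.2 ± 0.217 RPKM in vehicle cells. Ddit3, which encodes the stress factor CHOP, differed little, at 42.8, 40.0 and 39.0 RPKM in NAC cells against 50.3, 49.6 and 46.0 RPKM in vehicle cells (-0.26 ± 0.08, adjusted p = 0.0088). Of 20 cytosolic tRNA synthetases 17 fell and 1 rose, with a median of -0.66, and Iars, Nars, Rars and Aars fell by 1.13, 1.04, 0.98 and 0.96 on the log2 scale.

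Amino acid uptake and synthesis followed the same direction. Slc7a5, the light chain of the main carrier of large neutral amino acids, had 26.3, 26.9 and 23.9 RPKM in NAC cells against 140, 133 and 139 RPKM in vehicle cells (-2.37 ± 0.06 SE, adjusted p = 4.1e-17), and its heavy chain Slc3a2 averaged 53.5 ± 0.879 RPKM in NAC cells and 129 ± 0.878 RPKM in vehicle cells. Among 19 plasma membrane amino acid transporters 10 fell and 3 rose, with a median of -0.26 (14 and 3 after rescaling). Slc43a1, another carrier of large neutral amino acids, rose, averaging 5.33 ± 0.466 RPKM in NAC cells and 0.496 ± 0.0608 RPKM in vehicle cells. Slc7a11, the cystine carrier, was no member, at 0.0526 to 0.0791 RPKM in NAC cells and 0.547 to 0.568 RPKM in vehicle cells. In the serine, folate and proline synthesis group 13 of 23 members fell and 5 rose, with a median of -0.40 (16 and 2 after rescaling), and Shmt2 and Psat1, of serine metabolism, fell by 1.16 and 1.03 on the log2 scale. Chaperones of the endoplasmic reticulum and targets of the unfolded protein response had 19 of 27 members lower and 2 higher, with a median of -0.44 (22 lower after rescaling). Hspa5, the chaperone BiP, had 224, 226 and 227 RPKM in NAC cells against 466, 473 and 469 RPKM in vehicle cells, and Calr, calreticulin, averaged 238 ± 4.64 RPKM in NAC cells and 604 ± 0.547 RPKM in vehicle cells (SD, n = 3 each).

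Glucose uptake and glycolysis were mostly lower with NAC. Of 24 members 15 fell and 6 rose, with a median of -0.49 (17 and 6 after rescaling). Because the pseudocount of 1 compresses low values, fold changes of genes near 1 RPKM are understated on this scale. Slc2a1, the glucose transporter GLUT1, had 18.5, 18.4 and 16.7 RPKM in NAC cells against 53.02, 50.7 and 53.04 RPKM in vehicle cells (-1.5 ± 0.07 SE, adjusted p = 1.6e-13). Hk2, the inducible hexokinase, had 3.20, 3.25 and 3.77 RPKM in NAC cells against 18.5, 18.9 and 19.4 RPKM in vehicle cells (-2.18 ± 0.06, adjusted p = 2.2e-16). Both were also below vehicle acute cells, which had 69.1 ± 8.60 RPKM of Slc2a1 and 17.8 ± 1.72 RPKM of Hk2 (SD, n = 3). The 6 genes that rose, Pfkm, Pfkfb3, Pfkfb4, Aldoc, Eno2 and Ldhb, are isozymes or regulators. Eno2, an enolase, averaged 3.14 ± 0.200 RPKM in NAC cells and 0.427 ± 0.0531 RPKM in vehicle cells, and Ldhb, a lactate dehydrogenase subunit, averaged 6.52 ± 0.300 RPKM in NAC cells and 1.89 ± 0.0595 RPKM in vehicle cells. Pdk2, a kinase that turns off pyruvate dehydrogenase and belongs to the citric acid cycle group, averaged 8.22 ± 0.510 RPKM in NAC cells and 1.49 ± 0.155 RPKM in vehicle cells.

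**Figure D4:**
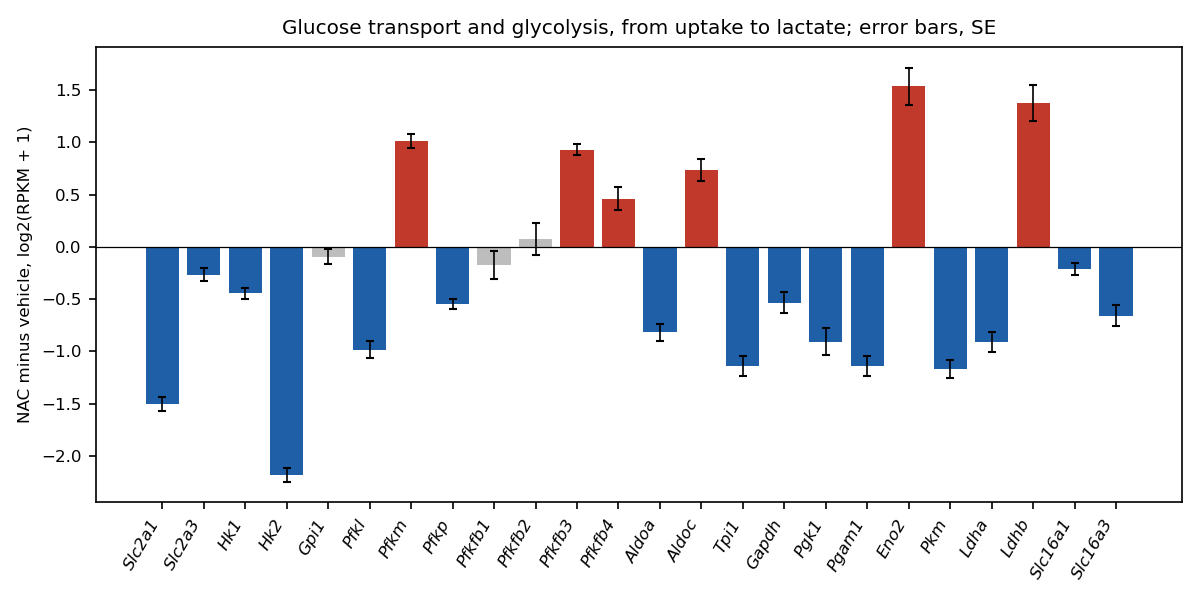
Log2 difference between NAC and vehicle chronic cells for 24 genes of glucose transport and glycolysis in pathway order, with error bars of 1 SE from limma. Red bars were called higher, blue bars lower and grey bars neither, and 15 of the 24 lie in the lower set.

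Respiratory chain genes differed little. Of 36 complex I members 29 were not called, 5 were lower and 2 higher, with a median of 0.01 and a range of -0.42 to 0.64, and after rescaling 13 were lower and 1 higher. Of 41 members of complexes II to V 13 fell and 6 rose, with a median of -0.06 (17 and 2, with a median of -0.24, after rescaling), and Uqcrq of complex III fell by 0.86 on the log2 scale. The citric acid cycle group had 11 members higher and 10 lower of 33, which became 5 and 14 after rescaling. Mitochondrial biogenesis, dynamics and mitophagy genes had 10 higher and 9 lower of 34, which became 5 and 20. Bnip3, a mitophagy receptor that is also a hypoxia target, averaged 8.16 ± 0.424 RPKM in NAC cells and 25.2 ± 0.444 RPKM in vehicle cells, and Pink1, the kinase that marks damaged mitochondria, 50.7 ± 1.42 RPKM in NAC cells and 18.5 ± 0.0630 RPKM in vehicle cells. Ppargc1a, the coactivator of mitochondrial biogenesis, was listed at 0 in all 6 libraries. Mitochondrial ribosomal proteins had 30 of 76 members lower and 9 higher, with a median of -0.14 (48 and 1 after rescaling), while 64 of 76 cytosolic ribosomal proteins were not called, 8 being lower and 4 higher (12 lower after rescaling). Proteasome subunits had 23 of 37 members lower and 3 higher (30 and 3 after rescaling), the 3 being the immunoproteasome subunits Psmb8, Psmb9 and Psmb10.

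Genes of mitosis and of DNA replication parted. Of 46 mitosis genes 41 were higher with NAC, with a median of 0.48. By limma 0 were lower, 0 also at an unadjusted p under 0.05 and 0 by voom on the recovered reads, whereas after rescaling 36 were higher and 2 lower. Cenpa, the centromeric histone, had 289, 287 and 292 RPKM in NAC cells against 127, 129 and 124 RPKM in vehicle cells (1.19 ± 0.05 SE, adjusted p = 1.4e-13), and Mki67, the proliferation antigen, had 113, 112 and 110 RPKM in NAC cells against 77.5, 76.6 and 78.5 RPKM in vehicle cells (0.52 ± 0.09, adjusted p = 2.7e-05). Acute cells had more Mki67, 169 ± 9.88 RPKM. Of 43 replication genes 16 fell and 10 rose, with a median of -0.05 (25 and 2 after rescaling), with Orc1, of the origin complex, at 3.49 ± 0.266 RPKM in NAC cells and 7.32 ± 0.377 RPKM in vehicle cells, and the factor E2f2 at 29.1 ± 0.310 RPKM in NAC cells and 12.7 ± 0.513 RPKM in vehicle cells. In vehicle chronic against vehicle acute cells 44 of the 46 mitosis genes and all 43 replication genes were lower. Of all genes tested 34.4% were lower and 24.5% higher in that comparison, which shares the vehicle chronic libraries with the main one.

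Among p53 targets and growth arrest genes 13 of 28 members rose and 12 fell, with a median of 0.06, and after rescaling 11 were higher and 13 lower, with a median of -0.11. Cdkn2a, which encodes cell cycle inhibitors of senescence, averaged 2.72 ± 0.175 RPKM in NAC cells and 15.9 ± 1.14 RPKM in vehicle cells, and Gadd45g, a stress-induced inhibitor of growth, 27.2 ± 0.725 RPKM in NAC cells and 157 ± 0.809 RPKM in vehicle cells. Acute cells had more Cdkn2a, 64.7 ± 1.08 RPKM (SD, n = 3). Its level was thus already lower in vehicle chronic than in acute cells (log2 difference -1.97, limma adjusted p = 6.7e-12). Fas, the death receptor, averaged 22.7 ± 1.86 RPKM in NAC cells and 5.70 ± 0.729 RPKM in vehicle cells. In the BCL2 family 5 of 16 members rose and 5 fell (4 and 8 after rescaling). Bcl2, which protects resting and memory T cells, averaged 43.2 ± 1.19 RPKM in NAC cells and 23.6 ± 0.0831 RPKM in vehicle cells, its antagonist Bcl2l11 (BIM) 78.3 ± 2.22 RPKM in NAC cells and 42.2 ± 0.446 RPKM in vehicle cells, and Bcl2l1 (BCL-XL), the survival protein of activated cells, 15.7 ± 0.212 RPKM in NAC cells and 27.4 ± 0.982 RPKM in vehicle cells.

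**Figure D5:**
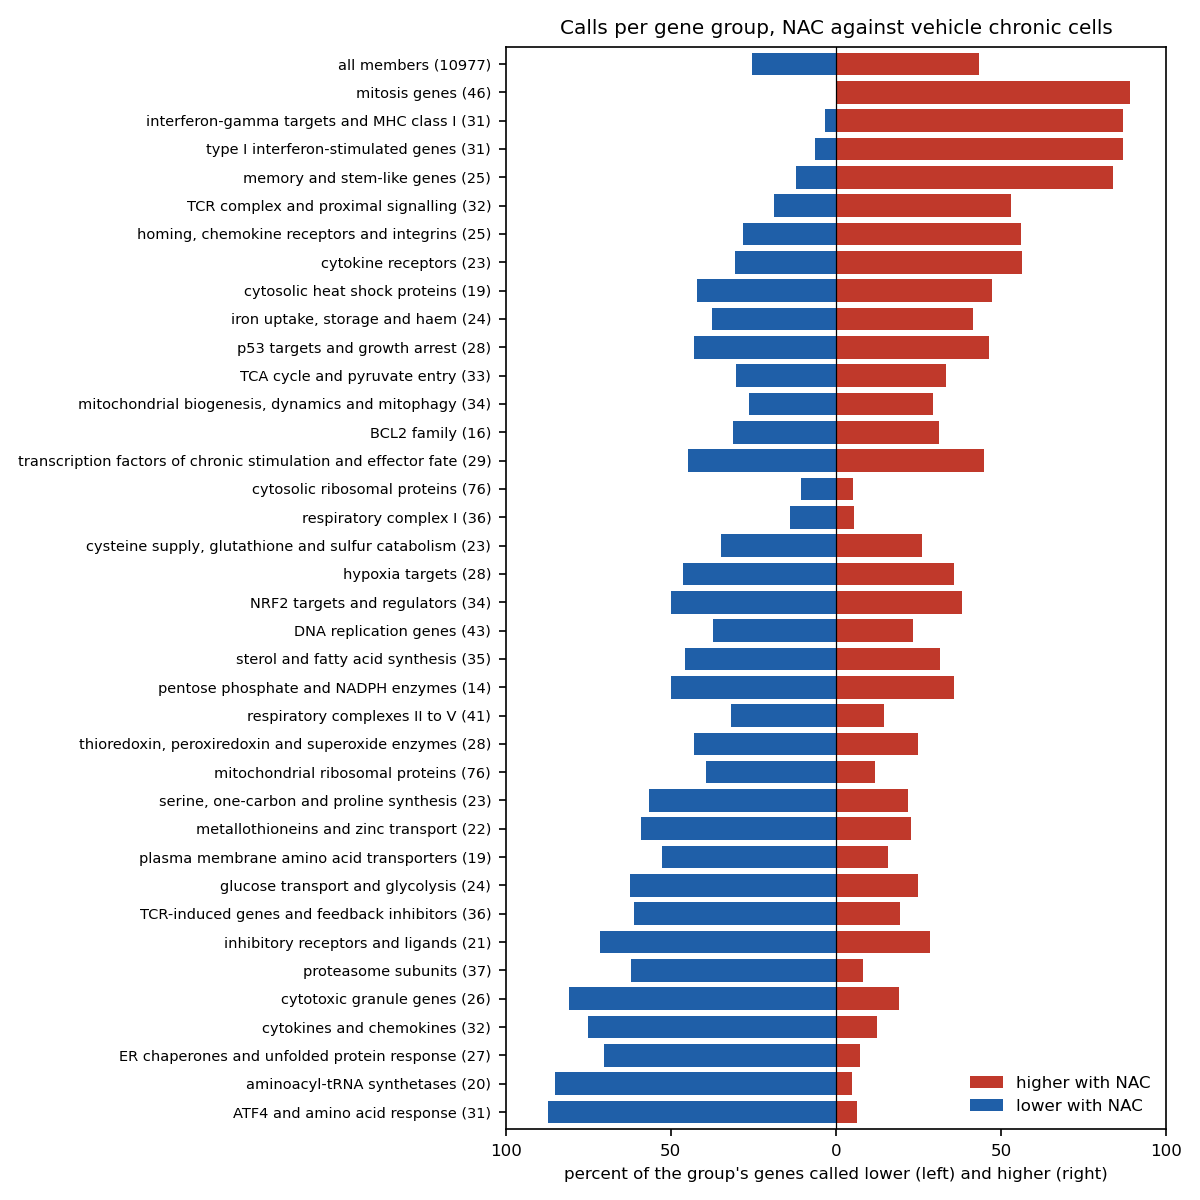
Percent of the members of each gene group called lower (blue, to the left) and higher (red, to the right) in NAC against vehicle chronic cells, with the number of members in parentheses and all members on top (43.4% higher, 25.3% lower). Mitosis, interferon and memory groups lead the higher side, and the ATF4, tRNA synthetase and cytotoxic groups have the largest lower shares.

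Chronic stimulation was also studied in 2 experiments that share no library with the NAC comparison, polyclonal cells stimulated in the same way and OT-I cells cultured with B16-F10 melanoma cells, themselves pretreated with interferon-gamma, with (chronic) or without (acute) the peptide SIINFEKL. Whether RNA of the melanoma cells was in the OT-I libraries, and in unlike parts in acute and chronic ones, was not tested. Calls of at least 2-fold at an adjusted p under 0.05 (limma) took 7.36% of all genes tested as higher and 5.73% as lower in polyclonal chronic against acute cells, and 2.91% as higher and 2.79% as lower in OT-I chronic against acute cells. Of the members called higher in polyclonal chronic cells (750 genes), 53.3% were lower and 29.5% higher with NAC, and of those called lower there (679 genes), 66.1% were higher and 19.0% lower. The same shares were 66.9% lower and 22.5% higher for the 284 members that rose in OT-I chronic cells, and 71.1% higher and 17.3% lower for the 249 that fell there. All 4 majorities were the same after rescaling, at 58.1%, 57.1%, 71.5% and 63.9% in that order. The background is 43.4% of members higher and 25.3% lower, or 30.1% higher and 36.5% lower after rescaling. Il13 rose in chronic cells in both experiments (log2 differences of 7.89 in polyclonal and 3.77 in OT-I cells) and fell with NAC. Tcf7 fell in both (-3.80 and -2.17) and rose with NAC. Other named genes did not follow this pattern. Pou2af1 rose in both experiments (6.92 and 4.38) and also with NAC. Ccr7, Slamf6, Cxcr4 and Cd5 rose in polyclonal chronic cells as they did with NAC. Gzma, Cd244 and Klrg1 fell in polyclonal chronic cells as they did with NAC. In OT-I chronic cells Slamf6 and Cxcr4 fell, and Gzma, Cd244 and Klrg1 rose. Mt1 and Mt2, both far lower with NAC, differed by -0.03 and 0.19 in polyclonal cells (limma adjusted p = 0.80 and 0.14). Both fell in OT-I chronic cells, by 0.39 and 0.34 (limma adjusted p = 0.0016 and 0.012).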

How the data were processed

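Poly(A) RNA of the 21 libraries was extracted with Trizol and prepared with the NEBNext Ultra kit, per the labels' protocols. The authors deposited 1 table of RPKM values per gene and library, and the submitters' processing notes name bcl2fastq 2.17, the counter HTSeq, edgeR and build mm9. The aligner, annotation and strand setting are left unnamed by these sources. Values in every gene came out as whole multiples of 1 read (tolerance 0.001), which gave reads in genes per library, from 5347355 to 25218890, as a measure of depth.

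Log2(RPKM + 1) was fitted with limma 3.58.1 in R 4.3.3, with 1 mean for each of the 7 groups of the 21 libraries, over the 12630 genes with at least 1 RPKM in at least 3 libraries, and p-values were adjusted by the Benjamini-Hochberg method over these genes. A gene was called at an adjusted p under 0.05. All fold changes are on the log2(RPKM + 1) scale, which understates changes of low genes. The procedure was tested on simulated data.

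The members and the gene lists were chosen with earlier results of these data known. Named genes were up to 4 called genes of each list with the largest change, a mean of at least 1 RPKM where high and groups that do not overlap, the 15 highest and 15 lowest changes, the 10 largest changes among genes of at least 50 RPKM, and a fixed set of well-known genes. Prf1 and the interferon element were added after values were seen, Cd8b1 comes from the marker list, and Pfkm, Pfkfb3, Pfkfb4 and Aldoc are named to complete a count. Promoter windows came from RefSeq, matched by symbol for 8555 of the 10977 members. Alternatives were another pseudocount, 2 other filters, rescaling to a common median, a replicate block, only the compared libraries, leaving out each library, and voom on the recovered reads.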

Additional observations from a re-analysis of the deposited data

How the results depend on the processing

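The numbers of genes called in the NAC comparison stayed within 1.5 times the reported ones under every alternative except a required change of at least 2-fold, which left 741 genes higher and 432 lower, of which 738 and 430 were members. Leaving out each library in turn gave 4486 to 4527 genes higher and 2627 to 2666 lower, and 4410 to 4449 members higher and 2566 to 2603 lower. Over the other alternatives the genes higher ranged from 3380 to 5693 and the genes lower from 2649 to 4113, the extremes 3380 and 4113 both coming from rescaling to a common median. Of 189 named or marker genes called, 182 kept their call and direction under every alternative run on them, 7 lost the call under at least 1 (Rps4l, Rpl10a, Rpl22, Gclc, Gclm, Zbtb7b and Cd14) and 0 changed sign. Of 23 such genes not called, 7 were called under at least 1 alternative, among them Cd8a, which was lower with NAC after rescaling (log2 difference -0.24) and in the fit of the 2 compared groups alone (-0.07). The cause of these changes was not tested. Replicate numbers did not pair the libraries: deviations from the group means correlated at -0.03, -0.002 and 0.026 between libraries of the same number. With a replicate block 5037 genes were higher and 2969 lower. Depth recovered from the RPKM values covers reads in genes only.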

Other observations

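Smaller groups not described above were mixed. Their counts stand beside 43.4% higher and 25.3% lower of all members, or 30.1% and 36.5% after rescaling. Cytosolic heat shock proteins had 9 of 19 members higher with NAC and 8 lower, with a median log2 difference of 0.09 (7 and 9 after rescaling). Hspa1a and Hspa1b, the stress-inducible HSP70 copies, averaged 17.4 ± 0.503 and 18.8 ± 0.0292 RPKM in NAC cells, against 4.02 ± 0.391 and 4.38 ± 0.142 RPKM in vehicle cells (SD, n = 3 each), and may share reads. Iron and haem genes had 10 of 24 members higher and 9 lower (7 and 9 after rescaling), with Tfrc, the transferrin receptor, at 48.9 ± 2.02 RPKM in NAC cells and 117 ± 0.768 RPKM in vehicle cells, and Ftl1, the ferritin light chain, at 229 ± 10.5 RPKM in NAC cells and 432 ± 4.34 RPKM in vehicle cells.

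Hypoxia targets had 10 of 28 members higher and 13 lower (8 and 14 after rescaling), with Vegfa, the angiogenic factor, at 4.53 ± 0.531 RPKM in NAC cells and 12.7 ± 0.808 RPKM in vehicle cells. Sterol and fatty acid synthesis had 11 of 35 members higher and 16 lower (7 and 20 after rescaling), none of them changed 2-fold by limma. Pentose phosphate and NADPH enzymes had 5 of 14 members higher and 7 lower (3 and 7 after rescaling), with Pgd, of the oxidative branch, at 49.5 ± 1.12 RPKM in NAC cells and 70.2 ± 2.73 RPKM in vehicle cells. Among the genes with the highest differences, Pou2af1, a coactivator best known from B cells, averaged 30.2 ± 1.54 RPKM in NAC cells and 0.865 ± 0.122 RPKM in vehicle cells (log2 difference 4.06 ± 0.20 SE, limma adjusted p = 4.6e-13). Timp1, an inhibitor of matrix proteases, averaged 0.980 ± 0.413 RPKM in NAC cells and 34.0 ± 2.63 RPKM in vehicle cells, and Il1r2, a decoy receptor of interleukin-1, 3.10 ± 0.0849 RPKM in NAC cells and 63.2 ± 3.61 RPKM in vehicle cells.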
